A study of Homo sapiens with 12 samples.

Results

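The core circadian clock genes were examined for FoxK1 occupancy in HepG2, an established liver tumour line that serves as a model of hepatocytes. FoxK1 is a forkhead transcription factor that acts in insulin signalling. All FoxK1 peaks were taken whose summit lay within 5 kb of the transcription start of 1 of 8 genes: PER1, PER2, CRY1, CRY2, ARNTL (now BMAL1), NR1D1, NR1D2 and BHLHE40. This rule used position alone and gave 104 peaks, which fell into 19 of the 68127 regions obtained by merging all peaks of the series that shared at least 1 bp. Cells of both groups had been without serum for 16 h. The insulin group then received 100 nM insulin for 20 min and the untreated group received none, and chromatin was immunoprecipitated with a FoxK1 antibody in 3 libraries per group. The 6 input libraries were not analysed here. Nothing in the labels says that replicates came from separate cultures, so p-values measure the spread between these libraries only. With peak lists alone, the labelled cell type could not be checked against expressed markers.

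The clock is a loop of transcription factors. ARNTL pairs with CLOCK and activates genes through E-boxes, short DNA elements with the core CACGTG. Among those genes, the PER and CRY proteins return to the nucleus and repress the ARNTL complex. NR1D1 and NR1D2 (REV-ERB alpha and beta) are heme-binding nuclear receptors that repress ARNTL from another loop, and BHLHE40 (DEC1) is a repressor that competes for E-boxes. In liver, feeding and insulin are known cues that shift clock gene expression.

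The RefSeq promoter sequences (250 bases before the start, build GRCh38.p14, printed 5′ to 3′ on the strand of the gene) are shown for the genes with the strongest and weakest FoxK1 region at the start, NR1D2 and BHLHE40, and for PER1 and NR1D1. CRY1 is added because its sequence was seen to hold a forkhead match. Capitals mark an E-box (CACGTG), a forkhead motif (GTAAACA) or a D-box (TTATGTAA), each in either orientation. The peaks are on hg19, and no hg19 genome was used here, so summits were not placed on these letters and the hg19 starts of the rule were not matched to these starts.
NR1D2, first RefSeq start, chr3:23945036-23945285 on the plus strand: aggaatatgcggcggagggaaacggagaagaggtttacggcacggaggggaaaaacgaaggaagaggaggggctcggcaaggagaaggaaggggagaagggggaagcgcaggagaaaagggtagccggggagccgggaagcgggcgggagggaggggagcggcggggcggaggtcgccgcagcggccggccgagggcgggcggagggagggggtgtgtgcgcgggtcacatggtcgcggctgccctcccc
NR1D2, second RefSeq start, chr3:23945871-23946120 on the plus strand: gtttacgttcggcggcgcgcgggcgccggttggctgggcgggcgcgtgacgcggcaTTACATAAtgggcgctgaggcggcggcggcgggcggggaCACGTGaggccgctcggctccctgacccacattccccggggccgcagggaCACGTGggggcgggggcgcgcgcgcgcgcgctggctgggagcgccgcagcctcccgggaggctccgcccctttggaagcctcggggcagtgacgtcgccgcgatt
BHLHE40, chr3:4979187-4979436 on the plus strand: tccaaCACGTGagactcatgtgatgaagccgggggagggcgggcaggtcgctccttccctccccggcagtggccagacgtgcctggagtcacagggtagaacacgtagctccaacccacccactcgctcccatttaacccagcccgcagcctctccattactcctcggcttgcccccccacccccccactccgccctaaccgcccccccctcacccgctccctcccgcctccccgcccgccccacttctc
PER1, chr17:8152405-8152654 on the minus strand: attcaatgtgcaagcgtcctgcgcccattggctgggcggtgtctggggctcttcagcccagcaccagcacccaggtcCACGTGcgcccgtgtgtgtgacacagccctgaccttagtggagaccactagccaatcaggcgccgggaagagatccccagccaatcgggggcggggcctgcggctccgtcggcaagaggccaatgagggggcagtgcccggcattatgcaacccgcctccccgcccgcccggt
NR1D1, chr17:40100590-40100839 on the minus strand: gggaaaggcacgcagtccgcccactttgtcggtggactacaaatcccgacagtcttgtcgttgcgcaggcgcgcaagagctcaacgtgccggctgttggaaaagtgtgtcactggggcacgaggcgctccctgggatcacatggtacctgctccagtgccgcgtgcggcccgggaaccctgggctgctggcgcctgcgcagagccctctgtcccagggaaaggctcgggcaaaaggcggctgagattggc
CRY1, chr12:107093550-107093799 on the minus strand: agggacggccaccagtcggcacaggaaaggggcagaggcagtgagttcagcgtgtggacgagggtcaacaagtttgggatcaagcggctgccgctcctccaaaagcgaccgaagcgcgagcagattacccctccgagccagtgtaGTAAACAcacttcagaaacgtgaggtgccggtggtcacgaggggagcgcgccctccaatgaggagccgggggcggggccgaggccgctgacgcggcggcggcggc

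All 8 genes matched the RefSeq table, with 11 starts in all, since CRY2, ARNTL and NR1D2 have more than 1. Motifs were searched on both strands of these windows. E-boxes were found in 3 of the 8 genes (PER1, NR1D2 and BHLHE40), that is in 3 of their 11 windows, against 6.34% of the 35116 RefSeq promoter windows of this length. The second NR1D2 start had 2 of them, 155 and 105 bases before the start. The forkhead motif GTAAACA was found only before CRY1, 105 bases from the start, and 2.98% of all windows hold it. Its shorter core TAAACA was likewise found only there (11% of all windows), at the same place. NR1D2 held the only D-box (0.834% of all windows). The CRE core TGACG was found in PER2, CRY1, CRY2 and NR1D2 (21.2% of all windows), and the full CRE TGACGTCA in none (1.65%). The element AGGTCA, which nuclear receptors of the REV-ERB type bind, was found in PER1 and CRY2 (12.1%), and the ETS motif CCGGAA in CRY2 (14.5%). The GC box GGGCGG was found in all 8 genes and in 42.6% of all windows. A match describes the letters and is not a binding site, and a missing match says only that the letters are not in the window.

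Every one of the 8 genes had a FoxK1 peak in every one of the 6 libraries. The insulin libraries held 18, 18 and 18 of these peaks (replicates 1, 2 and 3) and the untreated libraries 17, 18 and 15. That is 18 ± 0 per insulin library (SD, n = 3) against 16.7 ± 1.53 per untreated library (SD, n = 3). The difference of 1.33 was 0.5 without untreated replicate 3 and 2 without untreated replicate 2. The ranges touched at 18, and no test was run, since 3 libraries against 3 cannot give an exact p below 0.1. The whole lists held 48208, 45057 and 27503 peaks after insulin and 44687, 31668 and 26082 without it, so the shortest list was also the one with the fewest clock gene peaks. With every list limited to its strongest 26082 peaks, the means were 16 after insulin and 15.7 without it, a difference of 0.333. Of the 19 merged regions, 12 (63.2%) were called in all 6 libraries, against 23.3% of all merged regions. The 19 were selected for lying near known gene starts, so this is a description. The share of all gene starts with a peak was not computed, because no hg19 gene annotation was used here. Since each had a peak in every library, no clock gene could be called in all libraries of 1 treatment and in none of the other. None of the 19 regions was called that way, against 0.376% of all merged regions called after insulin only and 0.0352% called without insulin only.

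Most of the sites that every library shared lay close to a start. When summits within 100 bp of each other were joined, the 104 peaks gave 26 sites. Of these, 11 were present in all 6 libraries, 9 in 2 to 5 and 6 in a single library, and in the whole series 14.7% of such sites were present in all 6. The 11 constant sites held 66 of the 104 peaks, and 7 of these 11 sites lay within 500 bp of a start. PER1, PER2, CRY1, CRY2, ARNTL, NR1D1 and NR1D2 each had 1 such site. BHLHE40 was the exception, with a peak near its start in all libraries but with summits too scattered to form 1 site. Within the 11 constant sites the 6 summits spread over 9 to 113 bp, with a median of 64 bp. Positions here and below are given relative to the direction of transcription, and may be off by 1 bp because the counting base of the starts is not stated.

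**Figure D1:**
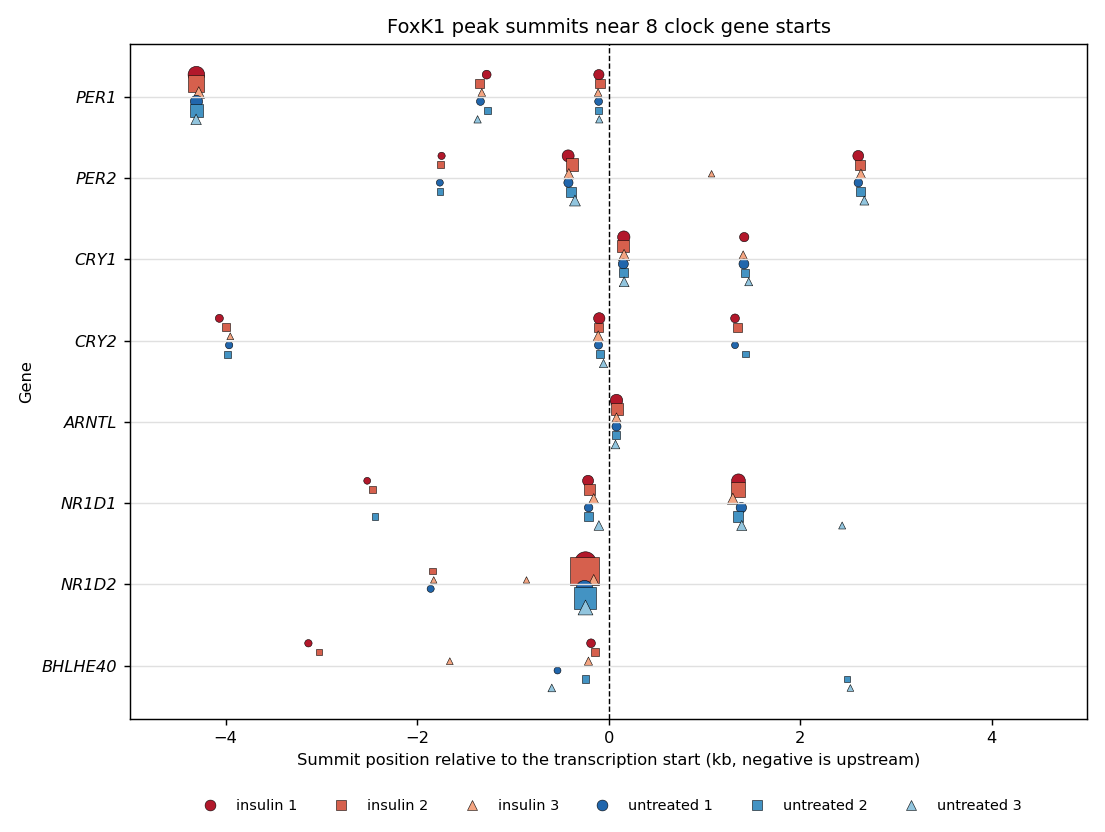
Position of each FoxK1 peak summit (kb from the transcription start, negative is upstream) for the 8 clock genes, with 1 row of symbols per library in red (insulin) or blue (untreated) and symbol area rising with the deposited fold enrichment. Each gene has summits close to its start in all 6 libraries, and PER1 has its strongest peak 4282 to 4310 bp upstream.

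The strength of a peak is given below in 3 ways. The deposited fold is the authors' enrichment of the summit over the background expected there and belongs to its own list. In both replicate 3 libraries that background was the lowest of the list at some clock gene summits. At CRY1, for example, it was 2.66 in insulin replicate 3 and 3.39 in untreated replicate 3. The number of fragments at the summit was recovered by combining that fold with the p-value of the peak, and it rises with the depth of a library. Total read numbers are not part of the peak lists, so depth is unknown. The rank is the place of the region among the 15887 regions called in all 6 libraries when sorted by −log10 q (1 is the strongest, ties take their mean rank), so that every library ranks the same regions.

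ARNTL, the activator of the loop, had 1 peak in each library and no other within 5 kb (merged region chr11:13298554-13299799, hg19, as are all regions below). Its summit lay 65 to 83 bp downstream of the start. The folds were 24.6, 19.2 and 11.4 after insulin and 10.7, 7.43 and 9.34 without it, and 108, 151 and 41 fragments lay there after insulin against 126, 68 and 40 without it. Its rank was 2051.5, 2266 and 2835.5 after insulin and 3292, 4024 and 2703 without it. Insulin replicate 3 ranked below untreated replicate 3, so the groups overlapped.

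PER1, 1 of the PER repressors of the clock, had its strongest FoxK1 site far from its start. Summits lay 4282 to 4310 bp upstream (chr17:8059404-8060589), on the side of its RefSeq neighbour VAMP2. The folds were 47.9, 45.4 and 21.1 after insulin and 23.7, 24.3 and 16.1 without it. This site carried 242, 346 and 81 fragments after insulin and 298, 170 and 75 without it, and ranked 302, 278.5 and 530 after insulin and 320, 256 and 560 without it. Both replicate 3 libraries ranked it lower than the 4 other libraries. The site at the start, 92 to 111 bp upstream (chr17:8055524-8056138), was also present in every library, but its folds were only 15.2, 12.3 and 6.01 after insulin and 6.67, 6.38 and 5.24 without it. The upstream site had 3.07 to 3.80 times the fold of the start site in the same library. A constant site 1263 to 1370 bp upstream (chr17:8056631-8057807) had folds of 4.67 to 9.91, and the far site exceeded it by 2.93 to 5.61 times. The rank of the start site was 6006 to 10047.5, near the middle of the shared regions, well below the far site.

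PER2, its paralog, had a constant site 353 to 424 bp upstream of the start (chr2:239196728-239199230). Its folds were 22.6, 25.9 and 15.4 after insulin and 11.1, 13.5 and 17.6 without it. The region that holds it ranked 766, 595 and 903 after insulin and 1069.5, 345 and 369 without it, and the 2 groups overlapped. A second constant site lay 2606 to 2670 bp downstream (chr2:239193865-239195262), with folds of 17.5, 15.6 and 12.1 after insulin and 8.78, 9.87 and 10.4 without it. The site upstream was the higher one in 6 of 6 libraries, by 1.27 to 1.69 times. A weak site 1746 to 1766 bp upstream (folds of 2.64 to 5.16) was called in replicates 1 and 2 of both treatments and in neither replicate 3 library, where the peak over the upstream site was widest, at 2187 and 2313 bp. Insulin replicate 3 also had a summit of fold 3.12 that lay 1074 bp downstream.

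CRY1, a cryptochrome that represses the ARNTL complex, had the most sharply placed of the 11 constant sites. The 6 summits lay 152 to 161 bp downstream of the start, within 9 bp of each other (chr12:107485767-107488133). The folds were 24.3, 21.0 and 19.1 after insulin and 13.9, 11.4 and 13.7 without it. It carried 159, 224 and 69 fragments after insulin and 219, 138 and 59 without it. Both replicate 3 libraries had the fewest. The region ranked 1162, 1134 and 774 after insulin and 1009, 830 and 946.5 without it, so the treatments overlapped. A second site 1404 to 1462 bp downstream was called in 5 libraries, with folds of 6.61 to 13.8. In insulin replicate 2, the library without that site, a single peak of 2287 bp covered both places.

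CRY2, the other cryptochrome, had its constant site 57 to 110 bp upstream (chr11:45868501-45869519). The folds were 19.5, 12.0 and 16.9 after insulin and 7.48, 7.93 and 8.17 without it, and 113, 133 and 66 fragments lay at the summit after insulin against 133, 91 and 42 without it. It ranked 2307, 3956 and 946.5 after insulin and 4381, 2479 and 2973.5 without it. Insulin replicate 3 ranked highest and untreated replicate 1 lowest, with the others mixed between them. A site 1319 to 1431 bp downstream was called in replicates 1 and 2 of both treatments, with folds of 3.45 to 9.76. Another site 3953 to 4067 bp upstream was called in all libraries but untreated replicate 3, with folds of 3.93 to 7.30.

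By median rank, the strongest clock gene region was at NR1D2, the gene of REV-ERB beta (chr3:23986405-23988196). Its summit lay 253, 253 and 157 bp upstream of the start in insulin replicates 1, 2 and 3 and 253, 246 and 249 bp upstream in untreated replicates 1, 2 and 3. Insulin replicate 3 alone had its summit nearer to the start. It carried 370, 1101 and 72 fragments after insulin, over expected backgrounds of 3.46, 6.47 and 3.11, and 714, 475 and 167 fragments without it, over 13.6, 4.30 and 3.49. The deposited folds were 83.2, 148 and 17.8 after insulin and 49.0, 89.8 and 37.4 without it. Its rank was 84, 6 and 790 after insulin and 22, 12 and 48 without it. In 5 libraries NR1D2 was thus among the 84 strongest shared regions, and insulin replicate 3 alone stood apart, where 4 other clock gene regions (both at NR1D1, the PER1 upstream one and CRY1) ranked above it. In the RefSeq gene table (GRCh38.p14) NR1D2 overlaps NKIRAS1, so a peak here lies near more than 1 gene. A weak site 1828 to 1860 bp upstream was called in insulin replicates 2 and 3 and untreated replicate 1, with folds of 3.02 to 4.64. Insulin replicate 3 also had a summit of fold 2.95 that lay 859 bp upstream.

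Among regions ranked as high in each of the other 5 libraries, no other ranked so low in insulin replicate 3. In all, 50 shared regions, NR1D2 included, ranked 84 or better in each of those 5, where 84 is the lowest rank of NR1D2. Such a rule also picks regions that keep their rank across libraries. Their median rank in insulin replicate 3 was 27.5, and the lowest of the 49 others ranked 141, against 790 for NR1D2. Measured against the PER1 upstream site of the same library, the NR1D2 summit had 1.53, 3.18 and 0.889 times as many fragments in insulin replicates 1, 2 and 3 and 2.40, 2.79 and 2.23 times as many in the untreated ones. Only insulin replicate 3 had fewer fragments at NR1D2 than at PER1. The expected background at NR1D2 in insulin replicate 3 was 0.962 times the median of its list. The peak there was 923 bp wide, close to the 868 bp of untreated replicate 3 and below the 1455 to 1659 bp of the other 4 libraries. This comparison was chosen after the value had been seen and has no test.

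**Figure D2:**
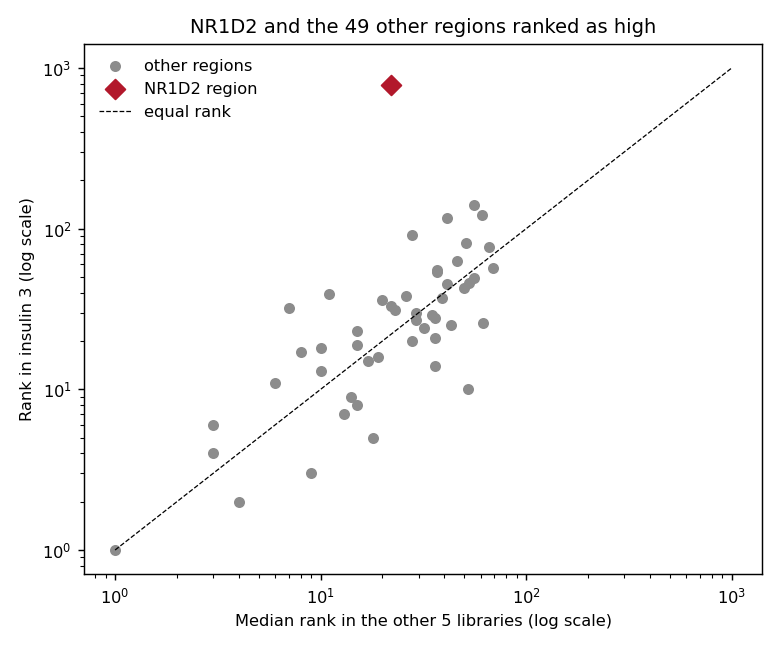
Rank of the 50 shared regions that ranked 84 or better in each library other than insulin replicate 3: median rank in those 5 libraries (x axis, log scale) against rank in insulin replicate 3 (y axis, log scale), with the dashed line at equal rank. NR1D2 (diamond) ranks 790 in insulin replicate 3 while the 49 other regions (grey) rank 141 or better.

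NR1D1 (REV-ERB alpha), the paralog of NR1D2, had constant sites on both sides of the start. The stronger one lay 1296 to 1389 bp downstream (chr17:38254137-38256076), with folds of 31.4, 35.9 and 18.7 after insulin and 15.7, 15.6 and 14.4 without it. It carried 310, 383 and 115 fragments after insulin and 421, 236 and 104 without it. Its rank was 263, 274 and 320 after insulin and 257, 213 and 343 without it, the narrowest spread of score among the 12 clock gene regions. The other lay 103 to 216 bp upstream (chr17:38256359-38257997), with folds of 18.2, 18.4 and 14.6 after insulin and 8.72, 9.95 and 12.8 without it. The downstream site had the higher fold in 6 of 6 libraries, by 1.13 to 1.95 times. A weaker site 2440 to 2523 bp upstream was present in insulin replicates 1 and 2 and untreated replicate 2, with folds of 3.40 to 4.22. Untreated replicate 3 alone had a summit 2438 bp downstream, with a fold of 4.52. NR1D1 overlaps another gene in that table, THRA, which encodes a thyroid hormone receptor. How near these peaks lie to THRA was not measured.

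BHLHE40, an E-box repressor, was the weakest of the 8. The peak nearest its start (chr3:5018803-5021219) was broad, 1199 to 2365 bp wide in 6 libraries, while the median peak of the lists was 431 to 565 bp wide. Its summits lay 185, 145 and 212 bp upstream after insulin and 545, 247 and 595 bp upstream without it, a spread of 450 bp over the 6 libraries. The folds were 9.65, 7.24 and 7.93 after insulin and 4.19, 4.56 and 6.38 without it. Its rank was 9683.5, 12669 and 6256.5 after insulin and 12641, 10402.5 and 6669.5 without it, so both replicate 3 libraries placed it higher than the others did. BHLHE40 also held 3 of the 6 sites seen in a single library, all upstream and of fold 3.21 to 5.49. A site 2486 to 2524 bp downstream was called in untreated replicates 2 and 3 (folds of 2.40 and 3.65).

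The sites nearest to the 5 kb limit from inside were the PER1 site 4282 to 4310 bp upstream (folds of 16.1 to 47.9) and the CRY2 site 3953 to 4067 bp upstream. Just outside it, all 6 libraries had a PER2 site 5939 to 5970 bp upstream, with folds of 5.13 to 11.3. An NR1D1 site 7600 to 7626 bp upstream had folds of 5.77 to 21.9 in the 6 libraries. A BHLHE40 site 7561 to 7593 bp downstream had folds of 7.38 to 16.1 and was stronger in every library than the peak at the BHLHE40 start.

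Ordered by the median rank of their strongest region, the genes ran NR1D2 (35), NR1D1 (268.5), PER1 (311), PER2 (680.5), CRY1 (977.75), CRY2 (2726.25), ARNTL (2769.25) and BHLHE40 (10043). Neighbouring genes overlapped in their ranks over the 6 libraries, except ARNTL and BHLHE40. Within a library, NR1D2 stood above NR1D1 in 5 of 6, NR1D1 above PER1 in 6 of 6, CRY1 above CRY2 in 6 of 6, PER1 above PER2 in 5 and PER2 above CRY1 in 4. CRY2 stood above ARNTL in only 2 of 6, so these 2 have no firm order. All of these orders are by −log10 q. By deposited fold, the PER1 upstream site stood above the strongest NR1D1 site in every library. The folds were 47.9 against 31.4 in insulin replicate 1 and 16.1 against 14.4 in untreated replicate 3. The expected background was 1.58 to 3.05 times the list median at that NR1D1 site and 0.786 to 1.37 times at that PER1 site. Against all peaks of the same list, the strongest NR1D1 peak exceeded 98.7% to 99.5% and the strongest BHLHE40 peak 59.4% to 76.4%.

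**Figure D3:**
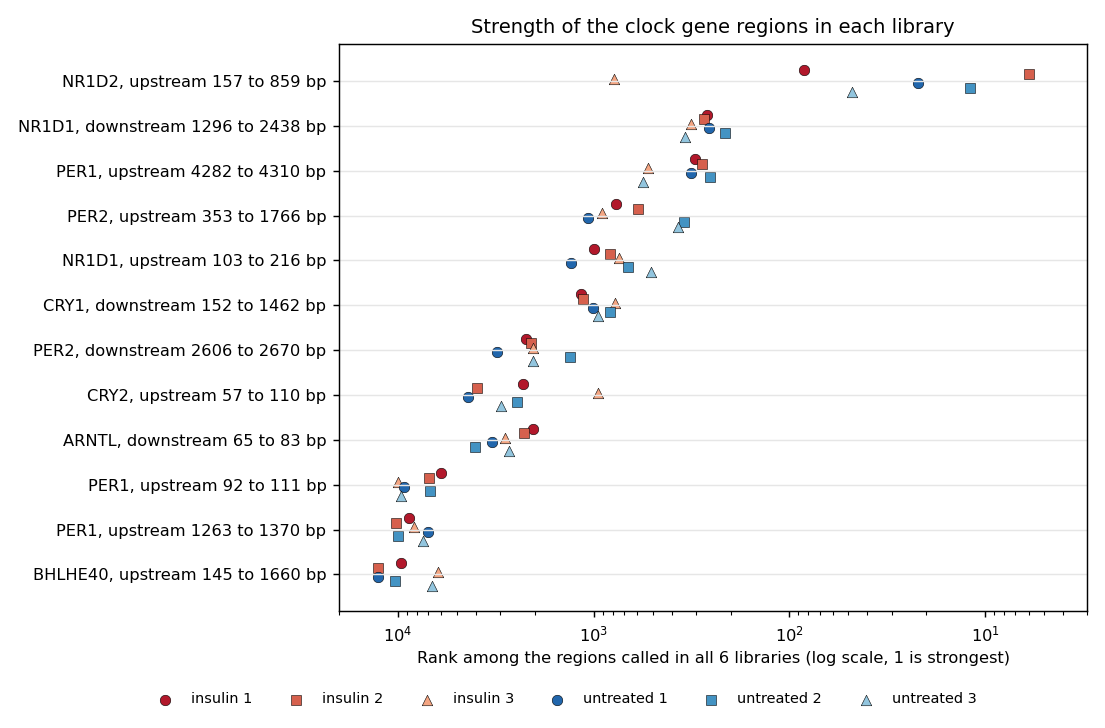
Rank of the 12 clock gene regions called in all 6 libraries (x axis, log scale, 1 is the strongest of 15887), 1 symbol per library in red (insulin) or blue (untreated), with regions sorted by median rank. The symbols of the 2 treatments mix in every region, and NR1D2 in insulin replicate 3 (790) lies far from its 5 other values (6 to 84).

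**Figure D4:**
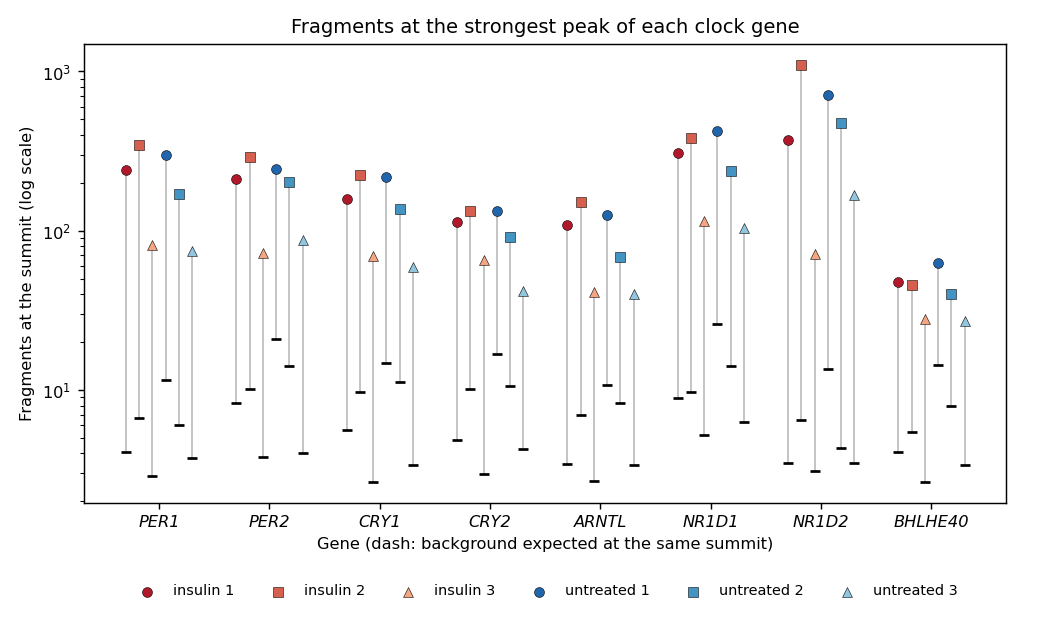
Fragments at the summit of the strongest peak of each clock gene in each library (symbols, log scale) above the background expected there (dashes). The replicate 3 libraries carry the fewest fragments at every gene, and NR1D2 reaches 1101 in insulin replicate 2 and falls to 72 in insulin replicate 3.

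The comparison of treatments asks whether insulin changed the place of the clock gene regions among the regions called in all 6 libraries. Ranking removes any gain or loss of binding common to all regions, so such a change could not be seen. Regions not called in all 6 libraries were not tested. No clock gene region moved in rank with insulin beyond the spread of the libraries. Ranks were turned into normal scores, where 0 is the middle shared region and 1 is about 1 SD above it, and all 15887 shared regions were fitted together with limma. In the whole fit 0 regions passed a Benjamini-Hochberg adjusted p of 0.05 in either direction, a background of 0% higher and 0% lower, and 649 (4.09%) had an unadjusted p below 0.05. None of the 12 clock gene regions was among these 649, and their adjusted p-values were all at least 0.999 (limma). With insulin, 5 of the 12 scored higher and 7 lower, with a median difference of -0.02 against 0.01 over all shared regions. The median size of the difference was 0.10 in the 12 and 0.21 over all shared regions.

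The largest estimate was at NR1D2, a score difference of -0.44 ± 0.41 (SE, n = 3 per group), where the insulin libraries averaged 2.53 ± 0.87 (SD, n = 3) and the untreated ones 2.98 ± 0.22 (SD, n = 3). The 95% confidence interval ran from -1.38 to 0.49 (limma adjusted p = 0.999). With the replicate as a block the SE of this difference was 0.30 (limma adjusted p = 0.809). Without insulin replicate 3 the difference was -0.0018 (limma adjusted p = 1.00), and without insulin replicate 2 it was -0.87 (limma adjusted p = 0.963), so its size depended on those libraries. At CRY2 the difference was 0.27 ± 0.29 (SE), with an interval of -0.39 to 0.92. Leaving out insulin replicate 3 gave 0.04, leaving out untreated replicate 1 gave 0.15, and leaving out insulin replicate 2 gave 0.48. At ARNTL the difference was 0.23 ± 0.22 (SE), with an interval of -0.28 to 0.74. NR1D1 differed by -0.03 ± 0.22 (SE) downstream and -0.04 ± 0.23 (SE) upstream, and the PER1 upstream site by 0.0049 ± 0.23 (SE). These intervals come from the fit without replicate blocks. They leave room for changes in either direction and do not show that binding was equal. On simulated scores with 3 libraries per group, shifts of 1, 2, 3 and 4 score units were called in 8%, 76%, 90% and 98% of 50 regions each. There were 5 false calls. The shifts were added to the scores, which were not ranked again, so shifted scores could lie beyond what ranks allow. The shifted regions were drawn at random from the 15887, and the libraries varied independently. At such regions a shift of 1 unit would usually be missed. Recovery at the clock gene regions themselves was not simulated.

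**Figure D5:**
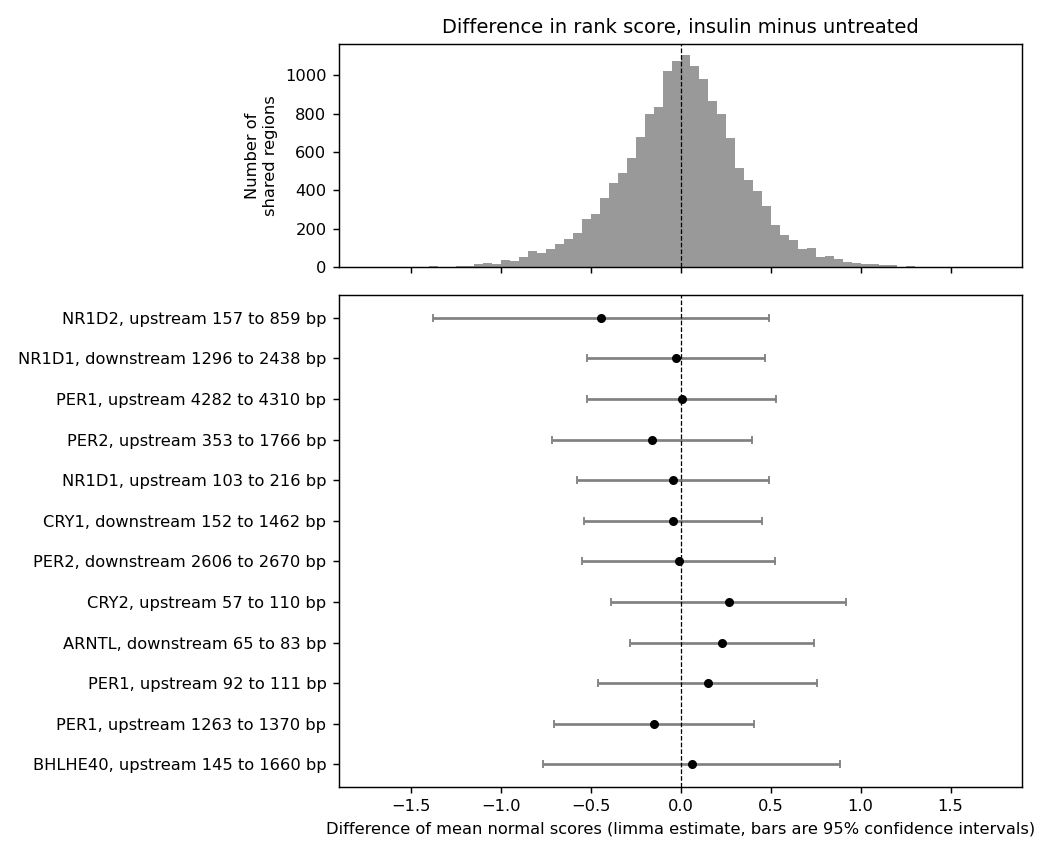
Difference in mean normal score, insulin minus untreated, for all 15887 shared regions (histogram, upper panel) and for the 12 clock gene regions (points with 95% confidence intervals from limma, lower panel). All 12 intervals include 0, and NR1D2 has the widest (-1.38 to 0.49).

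Read without ranking, the deposited folds would give another picture. At 7 of the 12 clock gene regions all 3 insulin folds were above all 3 untreated folds, and at none was it the reverse. The 7 were ARNTL, CRY1, CRY2, both NR1D1 regions, the PER2 downstream region and BHLHE40. The same was true of 34.3% of all shared regions, and 0.00629% showed the reverse; the insulin lists carried the higher folds in general. The median shared region had a log2 fold 0.59 higher after insulin, and the median clock gene region one 0.73 higher. In ranks, which remove that shift, 0 of the 12 clock gene regions had groups that did not overlap, against 4.66% of shared regions higher and 4.31% lower after insulin. The folds of different lists are therefore not compared here as a measure of insulin's effect. Whether the general shift in fold reflects binding was not tested.

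Some clock gene regions kept nearly the same place in every library. The range of the normal score over the 6 libraries was 0.19 at the NR1D1 downstream region and 0.20 at CRY1, and 0.346% and 0.434% of shared regions had a narrower one. Strong regions varied less in rank score, with a median range of 0.44 over the 1000 strongest shared regions against 0.97 over all. Those 1000 were picked by the mean of the same scores. Regions with a low score in 1 library are thus picked less often, so the narrower range is partly built in. Among those 1000, 3.4% were narrower than NR1D1 and 4.6% narrower than CRY1. NR1D2 stood at the other end, with a range of 1.74, and 2 of the 1000 were wider.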

How the data were processed

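FoxK1 chromatin immunoprecipitation was sequenced in HepG2 cells, and the authors deposited a peak list per immunoprecipitated library (6 lists). The submitters' processing notes name hg19 as the build and MACS2, Bowtie2, fastp and SAMtools as tools, without versions or roles. Peak names show that the authors called peaks per library. For threshold and control, no value was given in the sources used here. The deposited fold is a linear ratio of summit to background. Depth enters the −log10 p and −log10 q that the authors deposited. The deposited score, not used, was within 1 of 10 times the −log10 p.

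Peaks sharing at least 1 bp were merged into regions, and a region took the strongest peak of each library. The 8 genes are all described, and other clock genes were not located without an hg19 annotation. Gene starts were taken as given in the rule. The members, lists and tests were chosen with earlier results of these data known. Fragments at a summit were solved from fold = (fragments + 1)/(background + 1) and a Poisson tail, and a whole number met both for 100% of peaks in each list to a tolerance of 0.0005 in −log10 p, relative for larger values. This was tested on simulated data, as was the limma fit of normal scores of ranks. Deviations from the group mean correlated at 0.11 to 0.28 in same-numbered libraries and at -0.30 to 0.09 in other pairs. For replicate 1 the 0.11 was close to the 0.09 of insulin replicate 2 with untreated replicate 1. The replicate numbers, which come from the sample titles, may thus pair the libraries, but this is weak evidence. A fit with the replicate as a block was therefore run beside the unblocked fit. The reported SEs and intervals come from the unblocked fit and do not use such a pairing. Other settings were windows of 1, 2 and 10 kb, −log10 q of at least 5, equal list lengths, regions from summits within 100 bp, ranks by fold, log2 ranks, chromosomes 1 to 22 and X, and libraries left out. The 1 kb window, and leaving out replicate 3 in both treatments for the peak counts, were chosen after seeing the data. The fit used limma 3.58.1 in R 4.3.3, and the rest Python 3.11.15 with pandas 2.3.3, scipy 1.17.1, numpy 2.4.6 and, for figures, matplotlib 3.10.9.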

Additional observations from a re-analysis of the deposited data

How the results depend on the processing

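All 8 clock genes kept a peak in every library in 12 alternatives. Only the windows of 1 kb and 2 kb, the −log10 q limit and the equal list lengths could have changed this. Leaving libraries out or widening the window could not. A gene with a peak in every library cannot be one-sided, so the absence of one-sided genes is not a separate check. The difference in clock gene peaks per library, 1.33, stayed positive in 12 alternatives, from 0.333 with lists of equal length to 2 with a 10 kb window. It was 0.5 without untreated replicate 3 and 2 without untreated replicate 2. Leaving out an insulin library could not change it, since all 3 held 18 peaks. The count of shared regions past the limma threshold was 0 in all 12 alternatives, with 460 to 1223 at an unadjusted p below 0.05. With the replicate block the count of regions was 0 (1029 at an unadjusted p below 0.05), and the block changed no other call. The peak difference stayed 1.33 by construction, because a block cannot change a difference of means in this balanced design. Of 143 rank differences recomputed at the 12 clock gene regions, 129 kept their direction and 14 turned, and adjusted p lay between 0.809 and 1. The 129 include those of the block fit, which had to equal the unblocked ones. Ranked by fold, the PER1 upstream site gave -0.0153, NR1D1 downstream 0.0975 and NR1D1 upstream 0.0570, and without replicate 3 in both treatments the PER1 site gave -0.00477 and NR1D1 upstream 0.0187. With each library left out in turn, the ranges were -0.0887 to 0.0893 at the PER1 site, -0.147 to 0.115 at PER2 downstream, -0.198 to 0.336 at BHLHE40, -0.0769 to 0.0175 at NR1D1 downstream and -0.176 to 0.0527 at NR1D1 upstream. BHLHE40 turned to -0.198 without insulin replicate 3 and to -0.180 without untreated replicate 1, and without untreated replicate 2 PER2 downstream turned to 0.115. The cause was not tested. At CRY2 the range was 0.0356 (without insulin replicate 3) to 0.476 (without insulin replicate 2). At NR1D2 the range was -0.874 (without insulin replicate 2) to -0.00177 (without insulin replicate 3). BHLHE40 had no value with regions from summits within 100 bp, since no such site was called in all 6 libraries. Depth is unknown, and weaker binding was not separated from fewer reads. The lowest expected background of a list was 2.66 in insulin replicate 3 and 3.39 in untreated replicate 3. In the other libraries it was 1.17 to 2.25. How this value relates to depth was not tested.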
